A study of Mus musculus with 14 samples.

Results

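The glucocorticoid receptor, the enzyme that regenerates its hormone inside cells and 8 of its target genes were followed in bone marrow of mice under caloric restriction (CR). The 10 genes (Nr3c1, Hsd11b1, Fkbp5, Tsc22d3, Zbtb16, Sgk1, Klf9, Dusp1, Mt1 and Mt2) were found by symbol among the 55401 genes counted in every library. The tissue was the marrow plug of the distal tibia, a site rich in constitutive bone marrow adipocytes, from male mice aged 24 weeks. Each library was made from the pooled plugs of 2 mice. BMAd-Pnpla2-/- mice lack Pnpla2, the gene of the lipase ATGL, in bone marrow adipocytes, and BMAd-Pnpla2+/+ mice served as controls. Mice ate ad libitum (AL) or received a 30% CR for 6 weeks, with single housing and 1 daily meal given before the dark phase. There were 4 libraries each of BMAd-Pnpla2+/+ AL and BMAd-Pnpla2+/+ CR, and 3 each of BMAd-Pnpla2-/- AL and BMAd-Pnpla2-/- CR. Controls and knockouts alike carried Osterix-FLPo and the FLPo-activated Adipoq-Cre cassette on a mixed C57BL/6J and SJL background. Both therefore had the lowered adiponectin protein that this cassette brings. Cre was active where Osterix had been expressed and Adipoq was on, so that the floxed Pnpla2 alleles set the genotypes apart.

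Corticosterone, the glucocorticoid of mice, enters cells and binds the receptor encoded by Nr3c1, which is held in the cytoplasm by chaperones. The bound receptor moves to the nucleus and activates genes through paired short sites in DNA, or lowers inflammatory genes by acting on other transcription factors. Glucocorticoids are known to promote marrow adiposity and bone loss, to shift the traffic of leukocytes, and to rise in blood when food is restricted. Plasma corticosterone was not among the measurements used here.

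The counts of each gene without regard to strand summed to between 18898324 and 21665553 per library. These unstranded counts were used because the libraries of 1 group stood apart: in BMAd-Pnpla2-/- CR the first strand took 50.2% ± 0.223 (SD, n = 3) of the strand-assigned gene counts. In the other groups this share was between 4.42% ± 0.122 (SD, n = 4) for BMAd-Pnpla2+/+ AL and 4.51% ± 0.0982 (SD, n = 3) for BMAd-Pnpla2-/- AL. A library property that marks 1 whole group cannot be told apart from that group's genotype and diet. CPM is the count scaled by the total of its library after TMM adjustment. Pnpla2 ranged from 174 to 301 CPM in BMAd-Pnpla2+/+ AL and from 131 to 170 in BMAd-Pnpla2-/- AL. With CR it ranged from 502 to 1015 in BMAd-Pnpla2+/+ and from 177 to 267 in BMAd-Pnpla2-/-, so knockout libraries were below control libraries on both diets. The edgeR adjusted p of that genotype difference was 0.0386 under CR and 1 AL. All 9 adipocyte markers (Adipoq, Plin1, Cidec, Cfd, Lep, Lipe, Fabp4, Retn and Pnpla2) were detected in each group, in a plug whose 10 neutrophil markers summed to 12943 CPM or more in every library.

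One short DNA stretch is shown because it holds the receptor's paired sites next to a target gene. The promoter windows of RefSeq (build GRCm38.p6), which run from 250 bases before an annotated start to 50 after it, were searched for the full element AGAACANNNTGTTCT, whose reverse complement is the same motif. It was found in 3 of 32851 windows, or 0.00913% of them, and 1 of these is a window of Sgk1. Below are the 250 bases before that start on the plus strand at chr10:21993640-21993889, with the element in capitals, beginning 189 bases before the start.
Sgk1, window 5: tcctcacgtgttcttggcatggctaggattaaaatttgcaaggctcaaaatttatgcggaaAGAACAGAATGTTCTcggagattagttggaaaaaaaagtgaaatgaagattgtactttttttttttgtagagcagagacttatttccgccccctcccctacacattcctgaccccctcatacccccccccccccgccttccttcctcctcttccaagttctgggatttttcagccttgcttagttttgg

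A single arm of the element, AGAACA or TGTTCT, was present in 18.97% of all windows, in 1 of 3 windows of Tsc22d3 and in 3 of 6 windows of Sgk1. It was not in the windows of Fkbp5, Klf9, Dusp1, Hsd11b1, Mt1 and Mt2, and no window of Nr3c1 or Zbtb16 was analysed here. The metallothionein promoters are shown because both genes answer to metals as well as to glucocorticoids. Their windows hold the metal element, written TGCACNC or TGCGCNC on either strand, 3 times in Mt1 and 4 times in Mt2, against 25.7% of all windows with at least 1. This element also occurs 1 time in 1 window each of Hsd11b1, Dusp1 and Sgk1. The 250 bases before the starts of Mt1 and Mt2, both on the plus strand of chromosome 8, carry the element in capitals where it falls before the start, at chr8:94178839-94179088 for Mt1 and chr8:94172368-94172617 for Mt2.
Mt1: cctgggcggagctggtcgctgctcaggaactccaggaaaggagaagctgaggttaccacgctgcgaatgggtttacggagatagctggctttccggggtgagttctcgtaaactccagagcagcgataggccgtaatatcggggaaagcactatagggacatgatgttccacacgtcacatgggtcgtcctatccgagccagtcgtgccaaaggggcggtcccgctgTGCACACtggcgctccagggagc
Mt2: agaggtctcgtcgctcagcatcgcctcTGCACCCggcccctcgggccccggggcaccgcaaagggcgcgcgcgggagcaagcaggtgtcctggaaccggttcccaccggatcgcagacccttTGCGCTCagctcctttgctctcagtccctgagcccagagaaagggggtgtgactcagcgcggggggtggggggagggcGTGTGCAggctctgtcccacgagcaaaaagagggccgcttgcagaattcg
A match of letters describes the window and does not show that the receptor or a metal sensor was bound there.

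Levels of different genes were set side by side as TPM, the length-scaled counterpart of CPM, which divides the count by the length of the merged exons. In BMAd-Pnpla2+/+ AL (n = 4 for each mean ± SD) the highest TPM levels were those of Mt1, 89.9 ± 12.0, and Tsc22d3, 70.2 ± 10.3, whose spreads met. Nr3c1 stood at 41.6 ± 2.00 TPM and Dusp1 at 41.2 ± 10.01, and were not separated. Hsd11b1 (33.8 ± 3.33), Sgk1 (31.9 ± 2.98), Fkbp5 (26.6 ± 4.91) and Klf9 (23.3 ± 3.38) followed, each within the spread of its neighbour. Zbtb16, at 7.24 ± 1.67 TPM, lay below all of these. In BMAd-Pnpla2+/+ CR the TPM order changed: Tsc22d3 led at 196 ± 48.7, then Mt1 at 118 ± 22.7, Fkbp5 at 82.8 ± 11.7, Dusp1 at 80.8 ± 6.08, Klf9 at 66.8 ± 19.8 and Sgk1 at 62.9 ± 26.5, all with means above that of Nr3c1, which stood at 48.0 ± 5.43. The spreads of Fkbp5, Dusp1, Klf9 and Sgk1 met one another, and those of Klf9 and Sgk1 also met that of Nr3c1. Mt2 is left out of this order, since its unstranded count is unsuitable, as shown with the metallothioneins.

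Under CR, most of the target genes rose in marrow of both genotypes, whereas the receptor and the enzyme did not pass the test. A gene was called when the adjusted p of edgeR's quasi-likelihood test, over the 17671 genes that passed the filter on low counts, was under 0.05. All 10 genes passed that filter. In BMAd-Pnpla2+/+ mice 6 of the 10 genes were called higher with CR, Fkbp5, Tsc22d3, Zbtb16, Sgk1, Klf9 and Dusp1, while 15.1% of all genes tested were called higher and 10.9% lower. In BMAd-Pnpla2-/- mice the same 6 genes and Mt1 were called higher, against 6.04% of all genes higher and 5.57% lower. Averaged over the genotypes, these 7 genes were called higher, against 19.6% of all genes higher and 15.1% lower. Without Mt2, whose unstranded count is unsuitable, the median log2 fold change of the other 9 genes was 0.88 in BMAd-Pnpla2+/+ and 0.97 in BMAd-Pnpla2-/-, beside medians of all genes of 0.0028 and 0.047. Among these, 4 genes in each comparison, Fkbp5, Tsc22d3, Zbtb16 and Klf9, also had a log2 fold change over 1. Of all genes 7.33% met this added criterion in BMAd-Pnpla2+/+, 2.62% in BMAd-Pnpla2-/- and 5.98% averaged over both.

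For the 6 target genes called in both genotypes, every CR library was above every AL library across all 14 libraries, an ordering that 4.57% of all genes showed. Within the genotypes it was shown by 12.4% of all genes in BMAd-Pnpla2+/+ and 20.5% in BMAd-Pnpla2-/-. The calls in BMAd-Pnpla2-/- mice rested on 3 libraries a group. Leaving out BMAd-Pnpla2-/- AL replicate 1, BMAd-Pnpla2-/- AL replicate 3 or BMAd-Pnpla2-/- CR replicate 3 reduced them from 7 to 4, while the share of all genes called in either direction fell from 11.6% to 2.44%, 3.05% and 1.34%. Fkbp5, Tsc22d3, Zbtb16 and Klf9 were called in each of the 14 fits that left out 1 library.

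**Figure D1:**
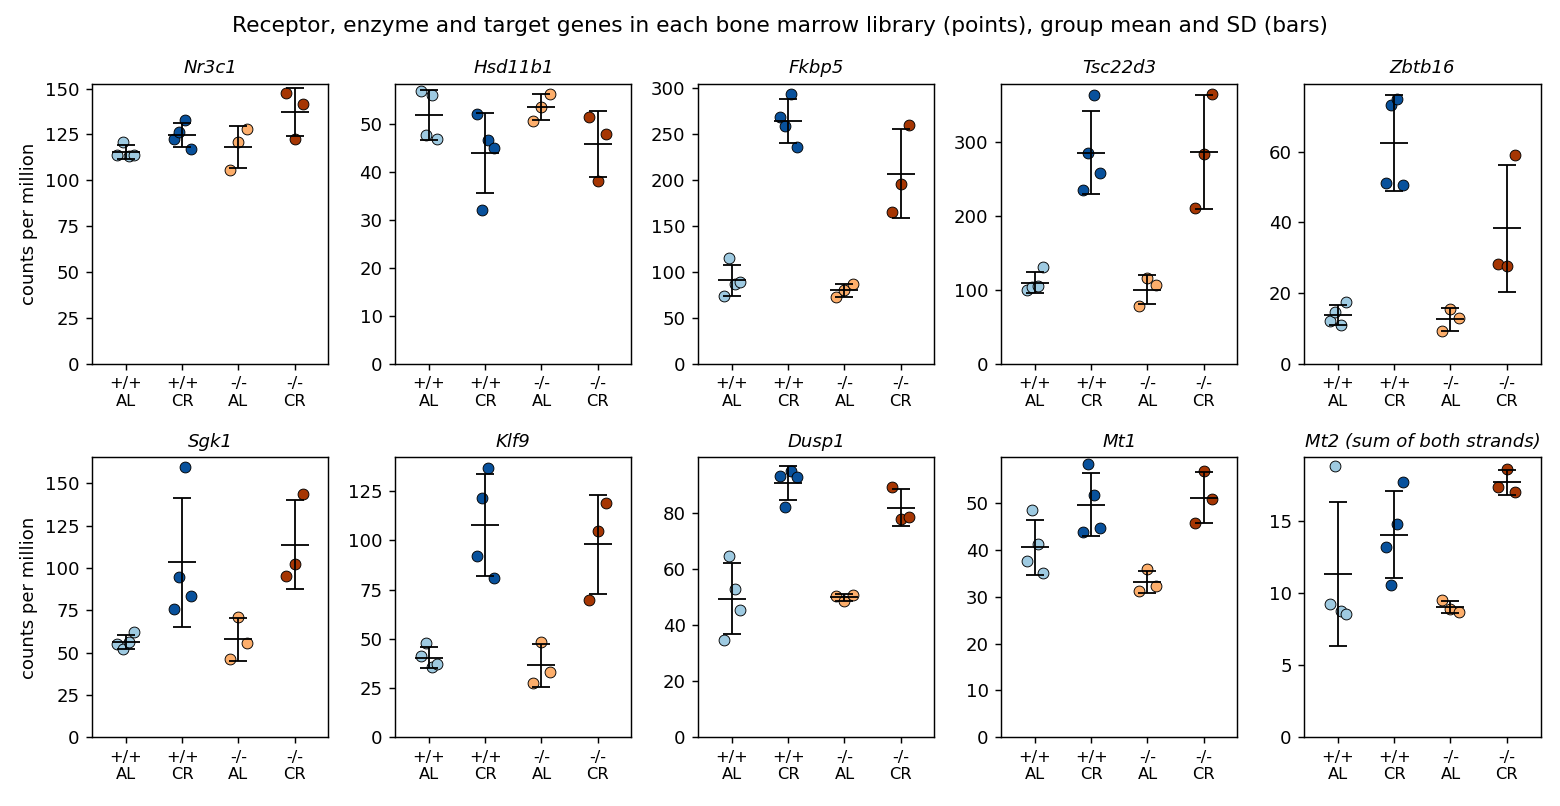
CPM of the 10 genes (vertical axes, starting at 0) in each library of the 4 groups (points), with the group mean and SD (bars, n = 4, 4, 3 and 3). For Fkbp5, Tsc22d3, Zbtb16, Sgk1, Klf9 and Dusp1 every CR library lies above every AL library, whereas Nr3c1 and Hsd11b1 overlap; Mt2 is drawn from the sum of both strands.

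Nr3c1 (chromosome 18, 39410545 to 39519421, minus strand, GRCm38), the receptor itself, gave 114, 121, 113 and 114 CPM in BMAd-Pnpla2+/+ AL and 122, 126, 133 and 117 in BMAd-Pnpla2+/+ CR. In BMAd-Pnpla2-/- it gave 105, 121 and 128 CPM AL and 148, 123 and 142 with CR. The ranges overlapped in both genotypes. Its log2 fold change with CR was 0.11 (SE 0.0825, adjusted p = 0.329) in BMAd-Pnpla2+/+ and 0.22 (SE 0.0953, adjusted p = 0.144) in BMAd-Pnpla2-/-, and 0.17 averaged over both (95% confidence interval 0.030 to 0.30, adjusted p = 0.056). Averaged, the call turned on scaling and on single libraries: scaled by total counts and not by TMM, its adjusted p was 0.0221, and it was 0.0434 without BMAd-Pnpla2+/+ CR replicate 4 and 0.0315 without BMAd-Pnpla2-/- CR replicate 2.

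Hsd11b1 (chromosome 1, 193221634 to 193264075, minus strand), whose enzyme returns inactive keto glucocorticoid to active corticosterone, gave 56.9, 47.7, 56.1 and 47.0 CPM in BMAd-Pnpla2+/+ AL and 52.1, 32.2, 46.7 and 45.0 in BMAd-Pnpla2+/+ CR. In BMAd-Pnpla2-/- it gave 50.7, 53.7 and 56.2 CPM AL and 51.5, 38.2 and 47.9 with CR. AL and CR libraries overlapped in both genotypes. The averaged log2 fold change was -0.23 (SE 0.105, adjusted p = 0.103). Without BMAd-Pnpla2+/+ CR replicate 1 it was -0.32 and passed the test, with an adjusted p of 0.0335.

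Fkbp5 (chromosome 17, 28399094 to 28517527, minus strand) encodes FKBP51, a co-chaperone that lowers the receptor's affinity for hormone and is itself induced by it. It gave 74.0, 115, 86.5 and 88.7 CPM in BMAd-Pnpla2+/+ AL and 269, 259, 294 and 236 in BMAd-Pnpla2+/+ CR, and 72.4, 80.8 and 86.7 AL and 165, 196 and 260 CR in BMAd-Pnpla2-/-. The lowest CR library thus exceeded the highest AL library in each genotype. Fkbp5 rose by a log2 fold change of 1.54 (SE 0.151, adjusted p = 0.000151) in BMAd-Pnpla2+/+ and 1.37 (SE 0.174, adjusted p = 0.00323) in BMAd-Pnpla2-/-, or 2.91-fold and 2.59-fold. Skeletal muscle markers moved with it in 1 library: the 6 markers summed to 115 CPM in BMAd-Pnpla2-/- CR replicate 3, which also had the highest Fkbp5 of its group, against 12.1 and 37.5 in the other 2 of that group and 8.75 to 26.1 in the other groups. Without that library the log2 fold change in BMAd-Pnpla2-/- was 1.17 (adjusted p = 0.0162).

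Tsc22d3 (chromosome X, 140539528 to 140600659, minus strand) encodes GILZ, a leucine zipper protein that carries part of the anti-inflammatory action of glucocorticoids. It gave 99.9, 104, 105 and 131 CPM in BMAd-Pnpla2+/+ AL and 236, 285, 364 and 258 with CR, and, in BMAd-Pnpla2-/-, 78.0, 116 and 106 AL and 211, 284 and 365 with CR. Both CR groups were far above both AL groups, and close to each other. The log2 fold change with CR was 1.38 (SE 0.184, adjusted p = 0.000949) in BMAd-Pnpla2+/+ and 1.52 (SE 0.213, adjusted p = 0.00481) in BMAd-Pnpla2-/-.

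Zbtb16 (chromosome 9, 48654297 to 48836222, minus strand) encodes the transcription factor PLZF, which acts in stem and progenitor cells and in innate-like lymphocytes. It had the largest fold change of the 10 genes in BMAd-Pnpla2+/+, from 12.0, 14.6, 11.02 and 17.4 CPM AL to 51.2, 73.2, 75.0 and 50.5 with CR. In BMAd-Pnpla2-/- it went from 9.14, 15.5 and 12.9 CPM AL to 28.3, 27.7 and 59.1 with CR, where 1 library stood well above the other 2. The log2 fold changes were 2.18 (SE 0.268, adjusted p = 0.000735) and 1.61 (SE 0.307, adjusted p = 0.0106). The 59.1 CPM came from BMAd-Pnpla2-/- CR replicate 3, and without it the log2 fold change was 1.16 (adjusted p = 0.0444).

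Sgk1 (chromosome 10, 21882184 to 21999903, plus strand), the serum- and glucocorticoid-regulated kinase whose window with the full element is printed above, gave 55.2, 52.0, 56.4 and 62.1 CPM in BMAd-Pnpla2+/+ AL and 76.0, 94.4, 159 and 83.2 in BMAd-Pnpla2+/+ CR. In BMAd-Pnpla2-/- it gave 46.4, 71.2 and 55.9 CPM AL and 94.96, 102 and 144 with CR. No CR library reached down to an AL library of its genotype, although the third CR library of each genotype was well above the rest. The log2 fold change was 0.87 (SE 0.219, adjusted p = 0.0144) in BMAd-Pnpla2+/+ and 0.97 (SE 0.253, adjusted p = 0.0289) in BMAd-Pnpla2-/-. The second call was lost without BMAd-Pnpla2-/- AL replicate 1 or 3, or BMAd-Pnpla2-/- CR replicate 2 or 3, with adjusted p up to 0.129, and without the filter on low counts, with an adjusted p of 0.0819.

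Klf9 (chromosome 19, 23141226 to 23168134, plus strand), a Krüppel-like transcription factor, gave 41.5, 47.7, 35.7 and 37.3 CPM in BMAd-Pnpla2+/+ AL and 92.1, 122, 137 and 80.8 with CR. In BMAd-Pnpla2-/- it gave 27.7, 48.5 and 33.4 CPM AL and 69.8, 105 and 119 with CR. The diets did not overlap in either genotype, and the log2 fold changes of 1.41 (SE 0.216, adjusted p = 0.00183) and 1.42 (SE 0.250, adjusted p = 0.00951) were nearly the same size.

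Dusp1 (chromosome 17, 26505590 to 26562128, minus strand) encodes a phosphatase that switches off MAP kinases. It gave 34.6, 64.8, 52.8 and 45.6 CPM in BMAd-Pnpla2+/+ AL and 93.2, 81.9, 95.1 and 92.7 in BMAd-Pnpla2+/+ CR, and 50.4, 48.6 and 50.8 AL and 89.4, 77.8 and 78.4 CR in BMAd-Pnpla2-/-. It varied more between AL libraries than between CR libraries of BMAd-Pnpla2+/+, yet the ranges stayed apart. The log2 fold change was 0.88 (SE 0.144, adjusted p = 0.00224) in BMAd-Pnpla2+/+ and 0.71 (SE 0.166, adjusted p = 0.0189) in BMAd-Pnpla2-/-. The latter call was lost without BMAd-Pnpla2-/- AL replicate 1 or 3, or BMAd-Pnpla2-/- CR replicate 3, with adjusted p from 0.0605 to 0.0741. Dusp1 is itself an immediate early gene, and others of that class are given with the pathway lists.

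**Figure D2:**
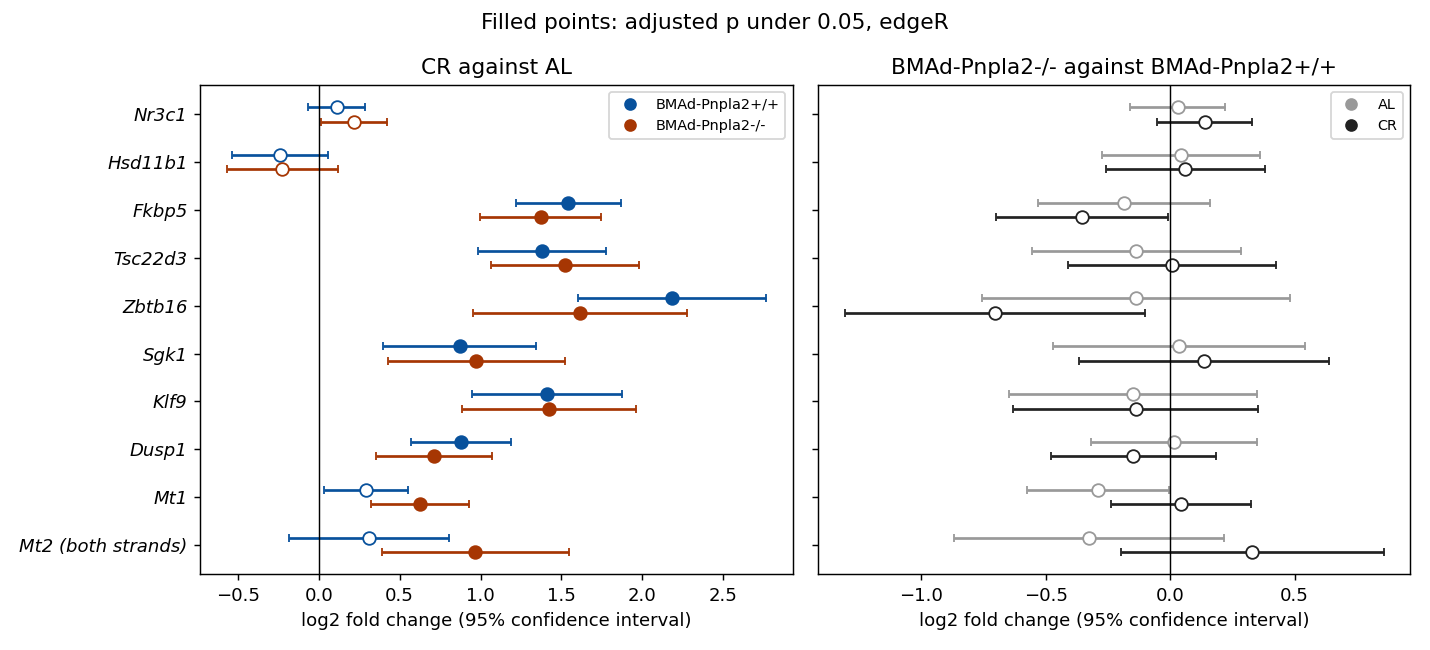
Log2 fold changes (horizontal axes, with 95% confidence intervals) of the 10 genes with CR in each genotype (left) and between the genotypes on each diet (right), with filled points for an adjusted p under 0.05. Fkbp5, Tsc22d3, Zbtb16, Sgk1, Klf9 and Dusp1 are filled in both genotypes on the left, Mt1 and Mt2 in BMAd-Pnpla2-/- alone, and no point is filled on the right; Mt2 is drawn from the sum of both strands.

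Metallothioneins bind zinc and copper and are induced by metals, oxidative stress and glucocorticoids. Mt1 (chromosome 8, 94179082 to 94180327, plus strand) gave 37.5, 48.5, 41.1 and 35.0 CPM in BMAd-Pnpla2+/+ AL and 43.8, 58.2, 51.7 and 44.6 with CR, which overlapped. In BMAd-Pnpla2-/- it gave 31.3, 35.8 and 32.3 CPM AL and 45.7, 56.7 and 50.8 with CR, which did not. The log2 fold change was 0.29 (SE 0.122, adjusted p = 0.0892) in BMAd-Pnpla2+/+ and 0.62 (SE 0.141, adjusted p = 0.0172) in BMAd-Pnpla2-/-, and the difference between these responses, 0.33 (SE 0.186), had an adjusted p of 0.545. In BMAd-Pnpla2+/+, Mt1 was called without AL replicate 2 (log2 fold change 0.39, adjusted p = 0.0409). In BMAd-Pnpla2-/- the call was lost without AL replicate 1 or 3, or CR replicate 2 or 3, with adjusted p from 0.0646 to 0.0889.

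The unstranded count of Mt2 (chromosome 8, 94172664 to 94173568, plus strand) was found unsuitable after its values were seen. The antisense gene Gm45774 covers 432 of the 588 bases of its merged exons, or 73.5%, and reads in 2 overlapping genes enter neither unstranded count. Mt2 accordingly had 3 to 25 unstranded counts per library, between 1.35% and 6.51% of the sum of its first-strand and second-strand counts, while this share was 99.8% or more for the other 9 genes in every library. Mt2 was therefore described from the sum of the strands, which treats strand-specific and other libraries alike. Another overlap, of Dusp1 with Ergic1 on the opposite strand, spans 11 bases, or 0.332% of the Dusp1 exons.

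**Figure D3:**
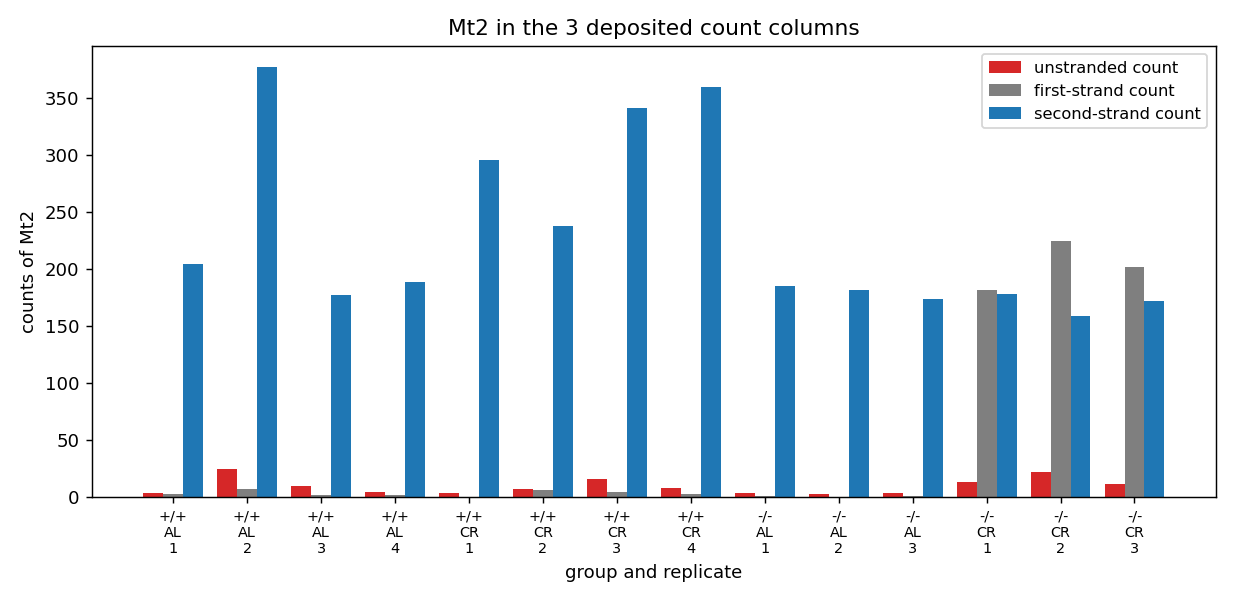
Counts of Mt2 (vertical axis) in each library (horizontal axis, by group and replicate), as the unstranded, first-strand and second-strand counts. The unstranded counts, 3 to 25, are small in all 14 libraries, and the first strand holds a large share in the 3 BMAd-Pnpla2-/- CR libraries alone.

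From the sum of both strands, Mt2 gave 9.23, 18.8, 8.74 and 8.56 CPM in BMAd-Pnpla2+/+ AL and 13.2, 10.6, 14.8 and 17.7 with CR, and 9.49, 8.91 and 8.68 AL and 17.3, 18.6 and 17.0 CR in BMAd-Pnpla2-/-. The diets overlapped in BMAd-Pnpla2+/+ and were apart in BMAd-Pnpla2-/-. The log2 fold change was 0.31 (SE 0.230, adjusted p = 0.328) in BMAd-Pnpla2+/+, 0.97 (SE 0.269, adjusted p = 0.034) in BMAd-Pnpla2-/- and 0.64 (SE 0.177, adjusted p = 0.0136) averaged over both. On this count 15.5%, 5.05% and 18.7% of the 19140 genes tested were called higher in these 3 comparisons. The overlap in BMAd-Pnpla2+/+ came from AL replicate 2, without which the log2 fold change there was 0.67 and called (adjusted p = 0.0145). The call in BMAd-Pnpla2-/- was lost on leaving out any of its 6 libraries, with adjusted p from 0.064 to 0.107, while the averaged call held in all 14 such fits.

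Between the genotypes, no difference of the 10 genes passed the test on either diet. AL, 0 of the 10 were called by edgeR, as were 0% of all genes, and DESeq2 called 0 of the 10 and 0.0658% of all genes. By edgeR 1 of the 10 (Mt1) had an unadjusted p under 0.05 AL, beside 700 of the 17671 genes tested. Under CR, 2 of the 10 (Fkbp5 and Zbtb16) had an unadjusted p under 0.05 by edgeR, beside 4095 of the 17671 genes tested. On that diet 0 of the 10 were called, against 0.0113% of all genes. The share of all genes depended on the fit: DESeq2 called 11.9% of 13112 genes under CR and 0 of the 10, and edgeR without BMAd-Pnpla2+/+ CR replicate 4 called 2112 of 17618 genes and 0 of the 10. The 95% confidence intervals of the log2 difference under CR ran from -0.41 to 0.42 for Tsc22d3, from -0.37 to 0.64 for Sgk1, from -0.63 to 0.35 for Klf9 and from -0.48 to 0.18 for Dusp1. Those of Fkbp5, from -0.70 to -0.010, and Zbtb16, from -1.31 to -0.10, lay below 0 before adjustment, with log2 differences of -0.35 (adjusted p = 0.205) and -0.70 (adjusted p = 0.162). In both cases replicates 1 and 2 of the knockout lay below every control library, and replicate 3, the library with the highest skeletal muscle markers, lay within the range of the controls. Without replicate 3 the log2 differences were -0.55 (adjusted p = 0.131) for Fkbp5 and -1.16 (adjusted p = 0.115) for Zbtb16, which did not pass the test.

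The response to CR itself was compared between genotypes by the interaction of genotype and diet. 0 of the 10 genes were called by edgeR or by DESeq2, as were 0% of all genes by edgeR. The unadjusted p of edgeR was under 0.05 for 1 gene, Mt2 in its unsuitable unstranded count, beside 1836 of the 17671 genes tested. On the sum of the strands the difference of the Mt2 responses was 0.66 (adjusted p = 0.502). The interval of the difference between the CR responses ran from -0.65 to 0.32 for Fkbp5, from -0.45 to 0.73 for Tsc22d3, from -1.43 to 0.29 for Zbtb16, from -0.61 to 0.82 for Sgk1, from -0.69 to 0.71 for Klf9 and from -0.63 to 0.31 for Dusp1. Differences within these intervals are not excluded.

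Adipocyte markers are given beside the genotype comparison. Of the 9 markers, 1 was called lower in the knockout under CR, Pnpla2, which is the deleted gene. Without it, the summed level of the other 8 ranged from 1869 to 4618 CPM in BMAd-Pnpla2+/+ CR and from 1193 to 1937 in BMAd-Pnpla2-/- CR, and these ranges overlapped, as did those of the 6 target genes called in both genotypes. Leaving Pnpla2 out was decided after the values were seen. Of these 8 markers 0 were called by edgeR between genotypes on either diet, with 6 of 8 at an unadjusted p under 0.05 on each. Among all 17671 genes tested, 700 had such an unadjusted p AL and 4095 under CR. AL, the same sum ranged from 655 to 1685 CPM in BMAd-Pnpla2+/+ and from 298 to 675 in BMAd-Pnpla2-/-, and all 8 markers were called higher with CR in each genotype. The part of this shift in the values of the 10 genes was not tested. As these are bulk samples, fewer cells of a type and less RNA per cell cannot be told apart.

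Markers of other cells moved with CR as well, and their part was likewise not tested. Among all genes tested, 15.1% were called higher and 10.9% lower in BMAd-Pnpla2+/+, and 6.04% and 5.57% in BMAd-Pnpla2-/-. Averaged over the genotypes, 15.1% were called lower. Of the 10 neutrophil markers 7 were called lower in BMAd-Pnpla2+/+, with summed levels of 26333 to 34357 CPM AL against 12943 to 23904 with CR. In BMAd-Pnpla2-/- edgeR called 0 of the 10, with sums of 28697 to 29569 CPM AL against 17588 to 28460 with CR, and 8 were called lower averaged over the genotypes. Of the 12 stromal and osteoblast markers, 7 and 1 were called higher, with sums of 5595 to 7150 CPM AL against 6253 to 14007 with CR in BMAd-Pnpla2+/+ and 5097 to 8723 against 7508 to 9216 in BMAd-Pnpla2-/-. Of the 8 markers of T and NK cells 4 and 2 were called higher, and of 10 B lineage markers 4 were called lower in each genotype. Of the 7 endothelial markers 5 were called higher and 1 lower in BMAd-Pnpla2+/+. Of 4 tested megakaryocyte markers 3 were called lower in BMAd-Pnpla2+/+, of 6 markers of mast cells and eosinophils 3 were called lower in each genotype, and of 9 monocyte and macrophage markers 2 were called higher and 2 lower in BMAd-Pnpla2+/+. The 7 erythroid markers summed to 8818 to 44288 CPM over all libraries. No list had a marker at 0 throughout a group.

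Some of the target genes varied together among libraries of the same group. As a description over 14 libraries, with each group's mean log2 CPM removed, Pearson's r was 0.88 between Tsc22d3 and Sgk1, 0.85 between Tsc22d3 and Zbtb16, 0.76 between Tsc22d3 and Klf9 and 0.75 between Zbtb16 and Sgk1. Dusp1 stood outside this set, with r between -0.12 and -0.06 to Tsc22d3, Zbtb16, Sgk1 and Klf9, and 0.47 to Fkbp5. Mt2 had r between -0.14 and 0.073 to these 4 genes, and Mt1 had r of 0.30 with Tsc22d3, 0.28 with Zbtb16, 0.26 with Sgk1 and 0.71 with Klf9. Nr3c1 had r of 0.54 with Zbtb16 and 0.45 with Sgk1. Hsd11b1 ran opposite to Mt1, with r of -0.61. The genes of a library share its depth and cell makeup: Klf9 had r of 0.90 and Tsc22d3 of 0.74 with the summed monocyte and macrophage markers, and Dusp1 had r of -0.81 with the summed B lineage markers.

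**Figure D4:**
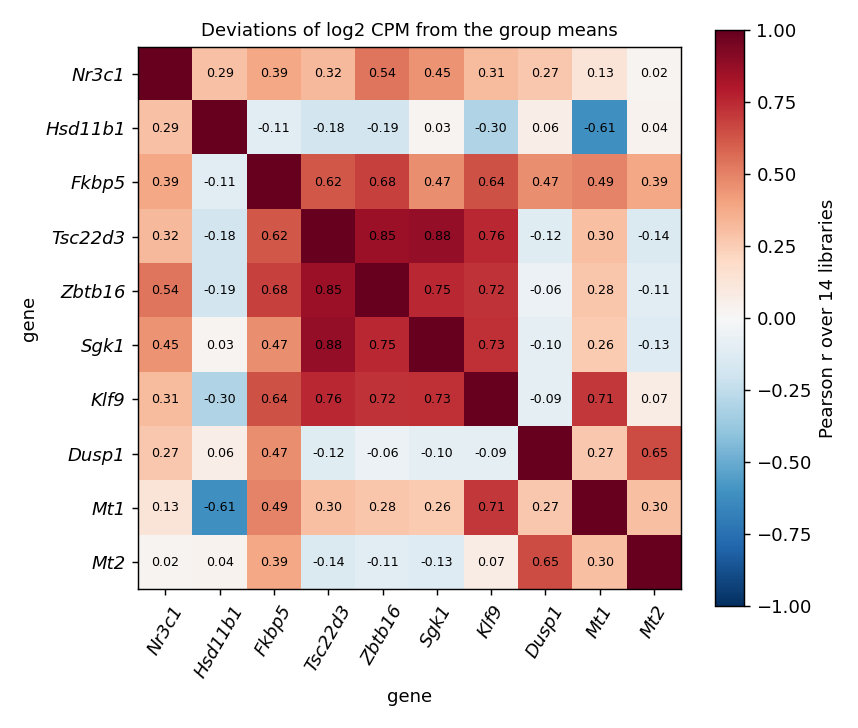
Pearson's r between the 10 genes (both axes) over 14 libraries, computed on deviations of log2 CPM from each group's mean (Mt2 from the sum of both strands), with the value in each cell. Tsc22d3, Zbtb16, Sgk1 and Klf9 form a block with r from 0.72 to 0.88, and Dusp1 has r from -0.12 to -0.06 with each of them.

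Among 13051 genes averaging 50 counts or more, the 5 whose deviations were most like those of Nr3c1 were Dennd1b and Mib1 (r = 0.93 for both), Map3k2 (0.92), Snx13 (0.90) and Myo5a (0.90). For Fkbp5 they were 2900052L18Rik (r = 0.87), Rwdd3 (0.84), Il15ra (0.83), Tnnt3 (0.82) and Hif3a (0.82). Tnnt3 is a skeletal muscle troponin, and Fkbp5 had r of 0.76 with the summed skeletal muscle markers.

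Of 30 other genes that glucocorticoids are known to raise in at least 1 cell type, 15 were called higher and 2 lower with CR in BMAd-Pnpla2+/+, 11 higher and 4 lower in BMAd-Pnpla2-/-, and 17 higher and 5 lower averaged over both. Among all genes tested, 15.1% were called higher and 10.9% lower in BMAd-Pnpla2+/+, and 6.04% and 5.57% in BMAd-Pnpla2-/-. Averaged over both, these shares were 19.6% and 15.1%. The median log2 fold change of the list was 0.43 and 0.40 in the 2 genotypes. Pdk4, a kinase that spares glucose by inhibiting pyruvate dehydrogenase, rose from 2.80 to 14.5 CPM (group means) in BMAd-Pnpla2+/+ and from 2.54 to 11.1 in BMAd-Pnpla2-/-, an averaged log2 fold change of 2.25 (adjusted p = 0.000646). Hif3a, a hypoxia-inducible factor subunit, rose by 2.19 and Ddit4, an inhibitor of mTORC1, by 2.11 on the averaged log2 scale. In both genotypes 11 of the 30 were called higher, these 3 and Klf15, Cd163, Errfi1, Per1, Lpin1, Cdkn1a, Glul and Sesn1. The latter 8 were named after their values were seen, and their averaged log2 fold changes ran from 0.43 for Sesn1, a stress-induced inhibitor of mTORC1, to 2.06 for Klf15, a transcription factor of amino acid catabolism. The 3 lowest were Rgs2, a regulator of G protein signalling, at -0.65, Cebpd, a transcription factor, at -0.56 and Lcn2, a neutrophil granule protein, at -0.51. Zfp36 and Bcl6, also named after their values were seen, were lower as well, at -0.46 and -0.39. On the sum of the strands their edgeR adjusted p were 0.000858 and 0.00283.

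Of 16 tested inflammatory genes that glucocorticoids are known to lower, 2 were called lower in BMAd-Pnpla2+/+, 4 in BMAd-Pnpla2-/- and 6 averaged over both, where 1 was called higher. Among all genes tested, 10.9% were called lower in BMAd-Pnpla2+/+, 5.57% in BMAd-Pnpla2-/- and 15.1% averaged over both, where 19.6% were called higher. Il1b, encoding interleukin-1 beta, fell from 41.7 to 17.3 CPM in BMAd-Pnpla2+/+ and from 41.9 to 20.8 in BMAd-Pnpla2-/- (group means), an averaged log2 fold change of -1.14 (adjusted p = 0.000592). Cxcl10, a chemokine, fell by 0.83 and Tnf by 0.57 on the averaged log2 scale. Mmp13, a collagenase of bone and cartilage, was the gene called higher, with an averaged log2 fold change of 1.53 (adjusted p = 0.0143). The list's median was -0.22 in BMAd-Pnpla2+/+ and -0.60 in BMAd-Pnpla2-/-.

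The other steps of the pathway moved in part. Of 7 tested genes of receptors, hormone handling and transport, edgeR called 3 higher in BMAd-Pnpla2+/+, 0 in BMAd-Pnpla2-/- and 4 averaged over the genotypes. Among all genes tested, 15.1%, 6.04% and 19.6% were called higher in these comparisons. The interaction of genotype and diet was called by edgeR for 0 of the 7. Nr3c2, the mineralocorticoid receptor, which also binds corticosterone, rose from 4.20 to 9.78 CPM in BMAd-Pnpla2+/+ (log2 fold change 1.22, adjusted p = 0.00665) and had 4.82 and 7.80 CPM in BMAd-Pnpla2-/- (0.69, adjusted p = 0.14). The drug and steroid exporters Abcb1a and Abcb1b had averaged log2 fold changes of 0.70 and 0.40. The fourth gene, Hsd11b2, which inactivates corticosterone, was named after its value was seen, and had an averaged log2 fold change of 1.92 from means of 0.902 and 4.75 CPM in BMAd-Pnpla2+/+ and 0.956 and 2.63 in BMAd-Pnpla2-/-, where its adjusted p was 0.109. The edgeR adjusted p of the interaction was 0.635 for Nr3c2 and 0.653 for Hsd11b2.

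Of 21 tested chaperones and coregulators of the receptor, 2 were called higher and 7 lower averaged over the genotypes. That comparison called 19.6% of all genes higher and 15.1% lower. Fkbp4, the co-chaperone that competes with the product of Fkbp5, fell from 117 to 72.9 CPM in BMAd-Pnpla2+/+ and from 102 to 65.2 in BMAd-Pnpla2-/-, an averaged log2 fold change of -0.67 (adjusted p = 0.000649), in the direction opposite to Fkbp5. Stip1, which links HSP70 to HSP90, fell by 0.61 and Smarca4, a chromatin remodelling ATPase, by 1.11 on the averaged log2 scale. Nrip1, a corepressor, rose by 0.62 and Ncoa1, a coactivator, by 0.23.

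Paralogs of the 10 genes did not share 1 direction, with 4 called higher and 4 lower of 19 tested, averaged over the genotypes. That comparison called 19.6% of all genes higher and 15.1% lower, beside this list and the lists that follow it here. Dusp4 rose by 1.20 on the averaged log2 scale while Dusp5 fell by 1.11 and Dusp2 by 0.58, and Tsc22d4 fell by 0.38. Zbtb20 rose by 0.77 and Klf13 by 0.47. Of 12 tested immediate early genes, 1 was called higher and 3 lower. Fos had an averaged log2 fold change of 0.59, and Atf3, Ier2 and Btg2 had -0.92, -0.61 and -0.43. Jund, named after its value was seen, had -0.27 and was not among those called lower. On the sum of the strands it had -0.57 (edgeR adjusted p = 0.00173). Of 10 metal response genes, which share inducers with Mt1 and Mt2, 1 was called higher, the zinc importer Slc39a14 (averaged log2 fold change 0.69, adjusted p = 0.00262).

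**Figure D5:**
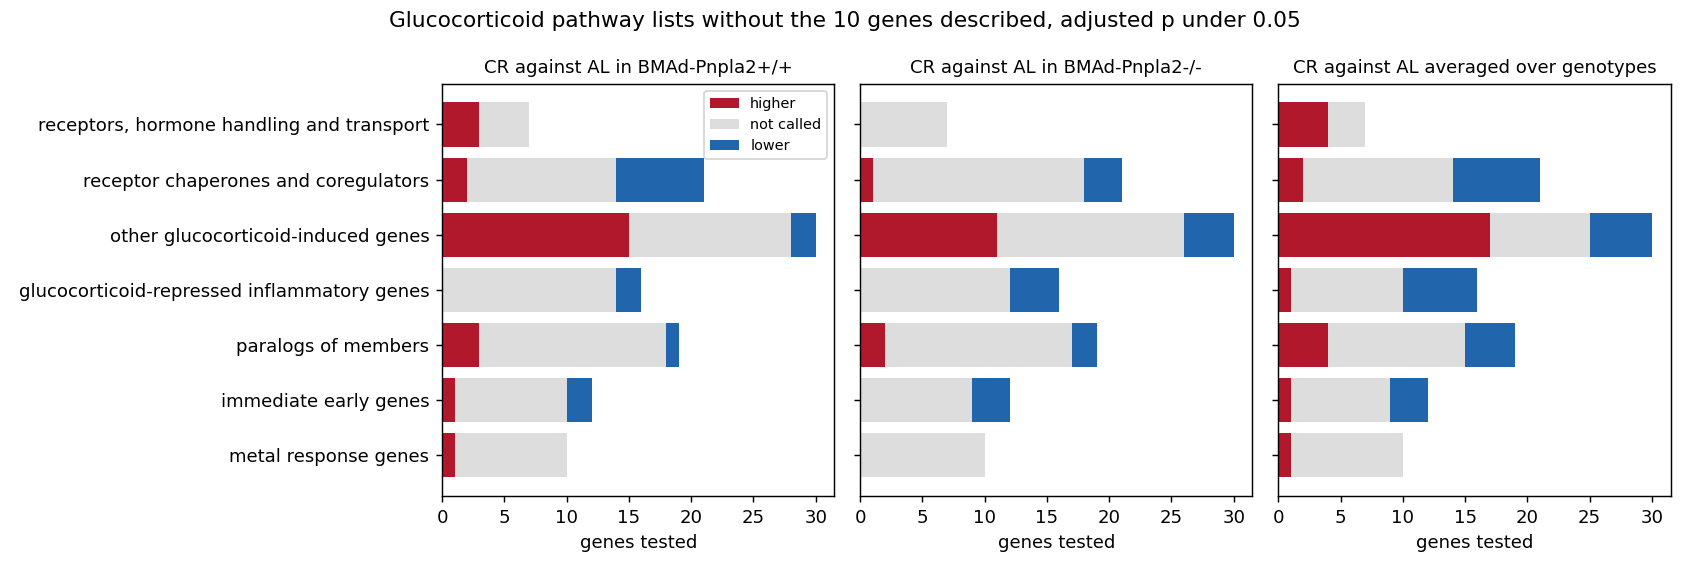
Number of genes tested (horizontal axis) in each of the 7 lists (vertical axis, without the 10 genes described) that were called higher, called lower or not called with CR, in each genotype and averaged over both. The list of other glucocorticoid-induced genes has 15, 11 and 17 of 30 genes higher in the 3 panels, and the immediate early genes have 1, 0 and 1 of 12. Among all genes tested, 15.1%, 6.04% and 19.6% were called higher in these comparisons.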

How the data were processed

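RNA of bone marrow plugs was sequenced in 14 libraries as 100-base read pairs. The authors aligned reads to mm10 with STAR, checked them with FastQC 0.11.9 (per the labels) and deposited raw counts per gene, which are not normalized: unstranded, first-strand and second-strand counts per sample, and a matrix that holds second-strand counts for 11 samples and unstranded counts for the 3 BMAd-Pnpla2-/- CR samples. Annotation release and STAR version are not given in the sources used here. The methods name DESeq2, with genotype and diet as main effects.

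Here unstranded counts of all samples were compared with edgeR 4.0.16 (R 4.3.3, limma 3.58.1): TMM scaling, filterByExpr, 1 robust quasi-likelihood fit of the 4 groups, two-sided tests and Benjamini-Hochberg adjustment over all 17671 genes tested. The standard error is the log2 fold change over the square root of F. CPM use TMM library sizes, and log2 CPM a prior count of 2. Alternatives were DESeq2 1.42.0, other scalings, filters and counts, a replicate block and leaving out each sample; the sum of the strands was added after seeing the data. Scripts were tested on simulated data. Coordinates are those of GENCODE M21 (GRCm38, the same build as mm10), which holds a model for 55141 of the 55401 gene identifiers.

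The genes, lists and rules were chosen with earlier results of these data known. From each list, up to 3 of the highest and 3 of the lowest averaged log2 fold changes with CR were named, among called genes averaging 50 counts or more, and the 5 genes most like Nr3c1 and Fkbp5. The labels do not say what a shared replicate number means, so the numbers were not taken to pair samples. Same-numbered samples of different groups had correlations of their deviations from -0.376 to 0.326 over 19 pairs, 7 of them over 0.1. Differently numbered samples were not compared in this way. No 2 samples held identical values. Each library pools 2 mice, and p-values measure the spread between pools. On the lists, Bag1, Junb, Myc, Il12b, Csf2, Mt4, Serpina6 and Akr1c18 were not tested here. Protein sequences were not used here.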

Additional observations from a re-analysis of the deposited data

Results flagged for a closer look

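Of 22 groups of 4 libraries examined, 2 held a library far from the other 3, and chance gives about 1 in 20 such groups. Nr3c1 in BMAd-Pnpla2+/+ AL had 121 CPM in replicate 2, against 113 to 114 in the other 3 (gap over range on the log2 scale 0.934), in a group whose whole spread was small. Mt2, by the sum of both strands, had 18.8 CPM in the same library, against 8.56 to 9.23 in the other 3 (0.903). That library, BMAd-Pnpla2+/+ AL replicate 2, also had the highest Fkbp5, Dusp1, Klf9 and Mt1 of its group, and the highest summed skeletal muscle markers, 26.1 CPM against 8.75 to 9.62. Without it, Mt2 was called higher with CR in BMAd-Pnpla2+/+ (log2 fold change 0.67, adjusted p = 0.0145 by edgeR), as was Mt1 (0.39, adjusted p = 0.0409).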

How the results depend on the processing

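For the responses to CR, the 6 target genes called in both genotypes kept their direction in all settings tried, as did Mt1. With the added criterion of an absolute log2 fold change over 1, 4 of the 10 genes were called in BMAd-Pnpla2+/+ (7.33% of all genes higher), 4 in BMAd-Pnpla2-/- (2.62%) and 4 averaged over both (5.98%). Leaving out each sample in turn gave 6 to 7 calls in BMAd-Pnpla2+/+, 4 to 8 in BMAd-Pnpla2-/- and 7 to 8 averaged, and 0 to 0 for the genotype comparisons and the interaction. Over all genes, the share called in these fits ranged from 12.7% to 34.2%, from 1.34% to 13.9% and from 24.6% to 39% for CR (26%, 11.6% and 34.7% with all samples), from 0% to 12% between genotypes under CR and was 0% in the other comparisons. With the replicate block, 7, 7 and 7 were called with CR (Mt1 in BMAd-Pnpla2+/+ being the added call, adjusted p = 0.0208) and 0 elsewhere. That block called 24.1%, 10.4% and 33.2% of all genes with CR. DESeq2 called 6, 7 and 7, beside 28.7%, 17.2% and 31.3% of all genes, and 0 of the 10 in the interaction beside 0.245%.

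The deposited matrix, which mixes count types between groups, called 1 gene, Mt2, between genotypes under CR and 1 in the interaction. It called 14% and 3.87% of all genes in these comparisons. There the Mt2 log2 fold changes turned to 0.27, -3.57 and -1.65 for CR in BMAd-Pnpla2+/+, in BMAd-Pnpla2-/- and averaged, -4.16 between genotypes under CR and -3.85 for the interaction. All but the first of these comparisons set second-strand counts against unstranded ones. The first set second-strand counts of 177 to 377 AL against 238 to 360 with CR, where the unstranded counts were 4 to 25. Its turn of sign was not tested further. By the sum of strands Mt2 turned to 0.31 with CR in BMAd-Pnpla2+/+.

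The remaining turns of sign were in values that passed the test in no setting, and their cause was not tested. Between genotypes AL, Dusp1 was -0.0015 with total counts alone. Under CR, Tsc22d3 was -0.022 with RLE, -0.029 without the filter, -0.023 with DESeq2 and -0.029 with the sum of strands, and Mt1 was -0.011 with the replicate block. In the same 4 settings as for Tsc22d3 the interaction was -0.010, -0.037, -0.015 and -0.019 for Hsd11b1 and -0.017, -0.042, -0.021 and -0.026 for Klf9. Leaving out each sample gave AL ranges from -0.024 to 0.11 for Nr3c1, -0.0010 to 0.091 for Hsd11b1, -0.25 to 0.019 for Tsc22d3, -0.31 to 0.051 for Zbtb16, -0.13 to 0.18 for Sgk1, -0.39 to 0.021 for Klf9, -0.12 to 0.17 for Dusp1 and -0.45 to 0.029 for Mt2 by the sum of strands. Under CR they were -0.064 to 0.17 for Hsd11b1, -0.21 to 0.18 for Tsc22d3, -0.069 to 0.43 for Sgk1, -0.30 to 0.053 for Klf9 and -0.042 to 0.13 for Mt1. In the interaction they were -0.017 to 0.18 for Nr3c1, -0.11 to 0.13 for Hsd11b1, -0.072 to 0.32 for Tsc22d3, -0.11 to 0.39 for Sgk1 and -0.21 to 0.21 for Klf9. For the unstranded Mt2 with CR in BMAd-Pnpla2+/+ it was -0.84 to 0.39. Total counts alone moved the median of all genes with CR in BMAd-Pnpla2-/- from 0.047 to 0.12.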
